A study of Arabidopsis thaliana with 6 samples.

Results

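The 3 Arabidopsis thaliana genes described here encode subunits of ribonucleotide reductase. They are RNR1 (AT2G21790), which encodes the large subunit, and RNR2A (AT3G23580) and TSO2 (AT3G27060), which each encode a small subunit. They were chosen by locus tag from 26552 loci with usable values, and each had 1 row in every deposited table. A further small-subunit locus, RNR2B (AT5G40942), which the TAIR10.1 annotation lists as a transcribed pseudogene, was not analysed here.

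The measurements are RNA-seq of poly(A) RNA from whole wild-type seedlings of the Col-0 accession, kept with shaking in liquid culture to an age of 6 days. The control group (n = 3 libraries) received no arsenical, at a labelled dose of 0 µM. The DMMTA group (n = 3) received 15 µM dimethylmonothioarsenate (DMMTA), a methylated, sulfur-containing arsenic compound, for 6 h. The labels call the libraries of a group biological replicates and do not say whether each came from its own culture dish, so the p-values measure the spread between these libraries.

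Ribonucleotide reductase converts ribonucleoside diphosphates to deoxyribonucleoside diphosphates, the step that commits nucleotides to DNA synthesis. The large subunit carries the catalytic and regulatory sites, and the small subunit holds the iron centre and the tyrosyl radical that start the reaction, so the enzyme needs both. In Arabidopsis the genes are known to be expressed in dividing cells around S phase, and TSO2 is also known to respond to DNA damage.

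Levels are given in TPM (transcripts per 1000000), obtained by rescaling the deposited RPKM values so that every library has the same total. TPM is per length, so levels of different genes can be set side by side. A fold is the ratio of 2 group means in TPM, whereas a log2 fold change comes from the fit of log2(TPM + 0.5). The spacing of low RPKM values put the depth at an estimated 66200000 to 135000000 reads per library, with the replicate 3 library the shallowest of each group. Behind each member's value stood an estimated 1543 to 3071 reads for RNR2A, 4894 to 41521 for TSO2 and 9254 to 34979 for RNR1, which puts the counting error of 1 value at 2.55% or less. Photosynthetic shoot markers (5 of 5 with values) summed to 19465 to 22414 TPM in control and 16863 to 19534 TPM in DMMTA. Of these, RBCS1B and RCA, a Rubisco subunit and the Rubisco activase, fell. The shoot markers RBCS1A, CAB2 and LHCA1 did not pass the test, at 0.883-fold, 1.23-fold and 1.06-fold. Root markers (4 of 5 with values) summed to 98.3 to 125 TPM and 23.7 to 41.2 TPM. Of these, SHR and SCR, regulators of root patterning, did not pass the test, and CASP1 and PRP3 fell. The 2 seed markers had sums between 0 and 5.75 TPM in the control libraries and between 0.204 and 1.75 TPM in the DMMTA libraries. The part of these shifts in the results below was not tested.

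The comparison asks how the transcripts of the enzyme differ between seedlings with and without DMMTA. TSO2 and RNR1 rose, TSO2 by 6.37-fold and RNR1 by 2.47-fold, and RNR2A did not pass the test at 1.19-fold. So 2 of the 3 genes were called higher by limma at a Benjamini-Hochberg adjusted p under 0.05, where 17.4% of the 18814 loci tested were called higher and 27.9% in either direction. In all 3 genes the lowest DMMTA library lay above the highest control library, a pattern that 27.8% of all loci tested also showed, while 46.5% had groups that did not overlap in either direction. In tissue as a whole, more cells that express a gene and more of its RNA per cell cannot be told apart.

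RNR1 encodes the large subunit. Its level was 49.3, 45.7 and 41.2 TPM in control replicates 1, 2 and 3 and 129, 98.8 and 109 TPM in DMMTA replicates 1, 2 and 3. The groups lay far apart, with DMMTA replicate 1 the highest of the 6 libraries. The means were 45.4 ± 4.02 (SD, n = 3) and 112 ± 15.3 TPM (SD, n = 3), a log2 fold change of 1.29 ± 0.12 SE with a 95% interval of 1.01 to 1.57 (limma adjusted p = 0.000136). Among the loci tested, RNR1 ranked 3629th by mean level in control and 1640th in DMMTA.

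TSO2 encodes a small subunit. Its level was 53.9, 53.7 and 53.5 TPM in the control libraries and 375, 318 and 333 TPM in the DMMTA libraries, in the same replicate order. The control values were almost identical, and every DMMTA value was several times higher. Their SD, 0.307% of the mean, was smaller than the counting error of a single value, which reached 1.43% for this gene, so the control SD understates the error. The means were 53.7 ± 0.165 and 342 ± 29.6 TPM (SD, n = 3), a log2 fold change of 2.66 ± 0.09 SE with a 95% interval of 2.45 to 2.87 (limma adjusted p = 3.43e-06). By log2 fold change TSO2 ranked 126th and RNR1 793rd among the 3272 loci called higher, and by p-value TSO2 ranked 5th of all 18814. Its rank by mean level moved from 3089th in control to 459th in DMMTA.

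RNR2A encodes the other small subunit. Its level was 19.2, 19.3 and 16.8 TPM in the control libraries and 23.2, 22.3 and 20.14 TPM in the DMMTA libraries. The groups did not overlap, but the gap between the nearest libraries was smaller than the spread within either group. The means were 18.5 ± 1.41 and 21.9 ± 1.59 TPM (SD, n = 3), with a log2 fold change of 0.24 ± 0.11 SE and a 95% interval of -0.01 to 0.49 (limma adjusted p = 0.138). The interval leaves room for no change and for a rise of 0.49 on the log2 scale, well below the lower bounds of RNR1 and TSO2. Reads from stretches shared between RNR2A and TSO2 could have been divided between them by the authors' counting, so small changes of RNR2A are uncertain.

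**Figure D1:**
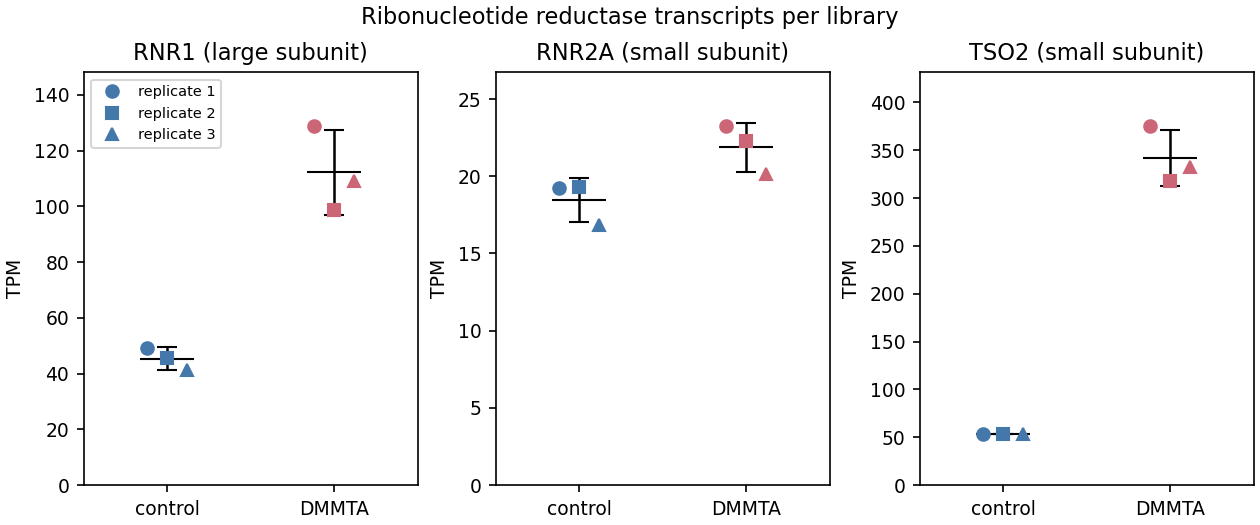
TPM of RNR1, RNR2A and TSO2 in each of the 3 control and 3 DMMTA libraries, each gene on its own linear axis from 0; symbols mark the replicate number, and the black bars show the mean ± SD of a group (n = 3). TSO2 went from 53.7 to 342 TPM and RNR1 from 45.4 to 112 TPM, while RNR2A was at 18.5 and 21.9 TPM.

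In control seedlings TSO2 stood above RNR1 and RNR1 above RNR2A in each library. The first step of that order depended on the deposited column used. From the authors' FPKM values, scaled the same way, RNR1 was at 48.8 ± 4.05 and TSO2 at 47.2 ± 0.498 (SD, n = 3), so the levels of RNR1 and TSO2 in control cannot be put in order. RNR2A was the lowest in every library by either column. In DMMTA the order TSO2, RNR1, RNR2A held in all 3 libraries by either column.

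TSO2 held a larger share of the small-subunit transcript in every DMMTA library than in any control library. It made up 73.7%, 73.5% and 76.1% of the small-subunit TPM (TSO2 and RNR2A together) in the control libraries and 94.2%, 93.5% and 94.3% in the DMMTA libraries. The groups were separated by a gap many times their SDs, with means of 74.4% ± 1.42 and 94.0% ± 0.446 (SD, n = 3). From FPKM the means were 69.8% ± 1.40 and 92.5% ± 0.465. A further locus named as a beta subunit of the enzyme, AT5G50410, was not counted here. Its means were 13.3 TPM in control and 12.8 TPM in DMMTA.

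Small-subunit transcript exceeded large-subunit transcript by more in DMMTA than in control. The ratio of TSO2 plus RNR2A to RNR1 was 1.48, 1.60 and 1.71 in the control libraries and 3.09, 3.45 and 3.23 in the DMMTA libraries. No control library reached the lowest DMMTA value. The means were 1.60 ± 0.111 and 3.26 ± 0.179 (SD, n = 3), 2.04-fold higher in DMMTA. For TSO2 alone over RNR1 the ratio went from 1.19 ± 0.103 to 3.06 ± 0.156 (SD, n = 3). From FPKM that ratio went from 0.971 ± 0.0774 to 2.50 ± 0.126, so its fold was nearly the same and its level was not.

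RNR2A relative to the large subunit was lower in the DMMTA libraries, with RNR1 at 2.47-fold and RNR2A itself at 1.19-fold. The ratio of RNR2A to RNR1 was 0.390, 0.423 and 0.408 in the control libraries and 0.180, 0.225 and 0.184 in the DMMTA libraries. Every DMMTA value was below every control value, and the means were 0.407 ± 0.0167 and 0.197 ± 0.0249 (SD, n = 3). The ratio of TSO2 to RNR2A went from 2.92 ± 0.226 to 15.7 ± 1.19 (SD, n = 3).

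A difference in the ratio of 1 gene to another is also a test of whether the 2 responded by unequal folds. The small to large ratio combines all 3 genes, and the TSO2 share follows from the ratio of TSO2 to RNR2A. The 5 balance measures therefore overlap and are not separate tests. On the log2 scale the response of TSO2 exceeded that of RNR1 by 1.37 and that of RNR2A by 2.42, and RNR2A changed relative to RNR1 by -1.06. For all 5 balance measures the exact two-sided permutation test over the 20 splits of 6 libraries gave p = 0.1 (adjusted p = 0.1 over the 5), which is the smallest value that this test can give for 3 against 3 libraries, so it cannot reach 0.05 here. The SD of the log2 ratios within a group was 0.18 or less. The 3 genes together went from 118 ± 5.47 to 476 ± 45.7 TPM (SD, n = 3). Of the difference between these means, TSO2 made up 80.4%, RNR1 18.6% and RNR2A 0.956%.

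**Figure D2:**
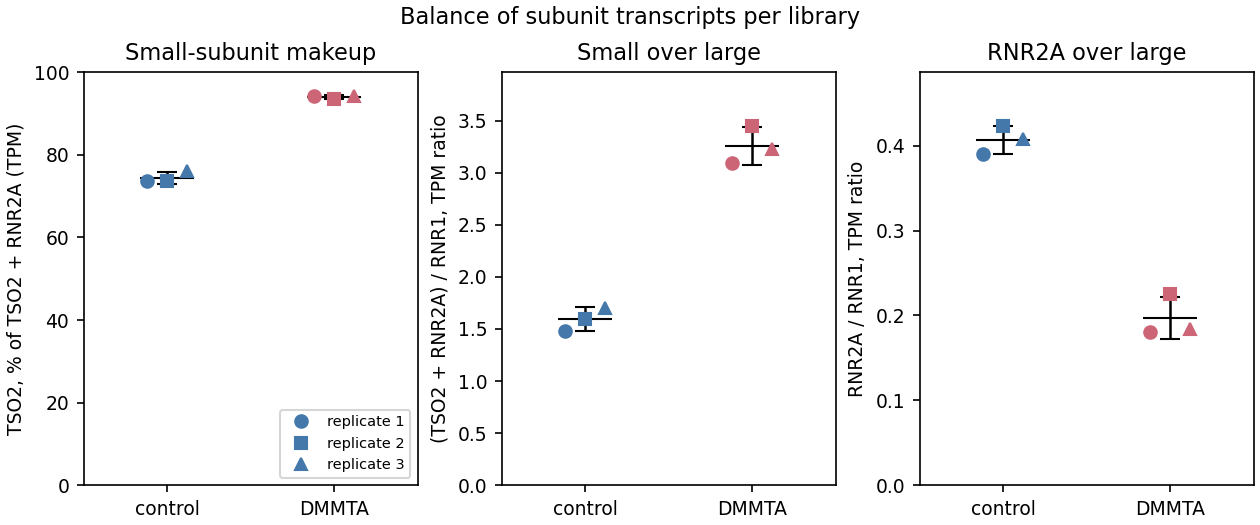
Balance of the subunit transcripts in each library, as the TSO2 share of small-subunit TPM in percent, the ratio of small-subunit to large-subunit TPM, and the ratio of RNR2A to RNR1; symbols mark the replicate number and black bars the mean ± SD (n = 3), on linear axes from 0. TSO2 went from 74.4% to 94.0% of the small-subunit TPM, the small to large ratio from 1.60 to 3.26, and the RNR2A to RNR1 ratio from 0.407 to 0.197.

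Within the DMMTA group, replicate 1 was the highest of the 3 libraries for all 3 genes, and replicate 2 was the lowest for RNR1 and TSO2, while replicate 3 was the lowest for RNR2A. Over the 6 libraries, the locus whose log2 profile lay nearest to that of TSO2, among the 17745 loci whose log2 level averaged 1 or more, was TK1a (AT3G07800). It encodes a thymidine kinase, which returns thymidine to the nucleotide pool and so also feeds DNA synthesis. Nearness was measured as the Euclidean distance between log2(TPM + 0.5) values, each gene centred on its own control mean, and for TK1a it was 0.154 (Pearson r = 0.999 over 6 libraries that form 2 groups, given as a description).

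The level of TK1a was 32.4, 30.6 and 28.9 TPM in the control libraries and 214, 178 and 205 TPM in the DMMTA libraries. As for TSO2, DMMTA replicate 1 was the highest and replicate 2 the lowest of the treated libraries. The means were 30.6 ± 1.73 and 199 ± 18.6 TPM (SD, n = 3), a rise of 6.49-fold beside the 6.37-fold of TSO2 (limma adjusted p = 3.87e-06).

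The next nearest to TSO2 were PARP2, a poly(ADP-ribose) polymerase of the DNA damage response (6.75-fold), MYB12, a regulator of flavonol synthesis (6.96-fold), and AT2G18193, annotated as a nucleoside triphosphate hydrolase of the P-loop superfamily (6.54-fold). Their distances were 0.237, 0.280 and 0.297. Nearest to RNR1 were ROF1, a peptidyl-prolyl isomerase linked to heat stress (2.44-fold, distance 0.0742), TRFL3, a TRF-like gene (2.63-fold, distance 0.142) and AT5G48020, annotated as an oxygenase of the 2-oxoglutarate and Fe(II) type (2.53-fold, distance 0.188). Nearest to RNR2A were AT2G02970, annotated as a nucleoside phosphatase (distance 0.0510), AT5G42360, a kelch repeat gene (distance 0.0627), and AT5G38600, a zinc knuckle gene (distance 0.0646). These 3 were at 1.18-fold to 1.19-fold and, like RNR2A, did not pass the test.

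**Figure D3:**
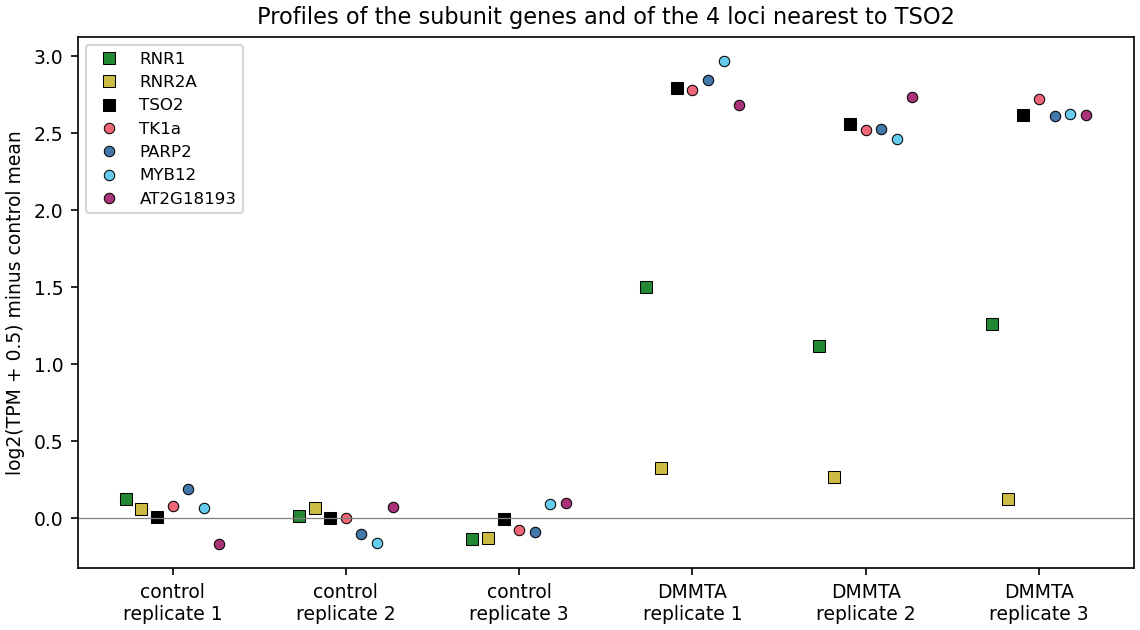
log2(TPM + 0.5) in each library minus the mean of the gene's control libraries, for the 3 subunit genes (squares) and the 4 loci nearest to TSO2 (circles). TK1a, at a distance of 0.154, lies closest to TSO2, while RNR1 and RNR2A lie at lower values in all 3 DMMTA libraries.

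Beside ribonucleotide reductase, 16 other genes of deoxynucleotide supply were listed, and 15 passed the expression filter. Of these, 2 were called higher and 0 lower, where 17.4% of all loci tested were called higher and 10.5% lower, so the count is near the background. Their median log2 fold change was -0.10, against 0.04 over all loci tested. The first was TK1a. The other was AT2G21550, annotated as a bifunctional dihydrofolate reductase and thymidylate synthase, which makes thymidylate. It was at 6.46, 6.06 and 4.14 TPM in the control libraries and 9.57, 10.4 and 9.24 TPM in the DMMTA libraries, 1.75-fold higher (limma adjusted p = 0.00977). The other 13 did not pass the test. Among them were THY-1 and THY-2, the better expressed genes of the same enzyme family. THY-1 was at 18.7 ± 2.03 and 18.7 ± 2.13 TPM, and THY-2 at 14.6 ± 1.93 and 12.7 ± 1.25 TPM (SD, n = 3). TK1b, the relative of TK1a, was at 14.8 ± 1.43 and 12.9 ± 2.43 TPM. Also among the 13 were dNK, the deoxynucleoside kinase, at 22.0 ± 2.26 and 18.4 ± 4.01 TPM, and DUT1, the dUTPase, at 25.9 ± 1.80 and 28.1 ± 1.53 TPM. The genes named from the 13 were picked after their values were seen, to show the other steps of the pathway.

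Ribonucleotide reductase takes its electrons from thioredoxin or glutaredoxin. Of 10 listed thioredoxins, glutaredoxins and their reductases, 3 were called higher and 0 lower (median log2 fold change -0.04), beside 17.4% and 10.5% of all loci tested. Glutathione reductase GR1 (AT3G24170) rose 2.41-fold, from 97.8 ± 11.00 to 236 ± 8.49 TPM (SD, n = 3). TRX5, an h-type thioredoxin, rose 1.83-fold, from 139 ± 31.2 to 255 ± 34.2 TPM. NTRA, an NADPH-thioredoxin reductase, rose 1.32-fold, from 143 ± 1.72 to 189 ± 4.18 TPM. The named members also act in general redox metabolism, and which donor the enzyme uses was not measured.

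In the list of cell cycle and checkpoint regulators, 3 of 12 tested were called higher and 0 lower (median log2 fold change 0.09), near the 17.4% called higher of all loci tested. E2FC (AT1G47870, annotated ATE2F2), an E2F factor known mainly as a repressor, rose 1.63-fold, from 14.8 ± 1.34 to 24.2 ± 1.41 TPM (SD, n = 3). RBR1, the retinoblastoma-related repressor of E2F factors, rose 1.69-fold, from 14.3 ± 2.04 to 24.1 ± 4.41 TPM. WEE1, a kinase of the replication checkpoint, rose 2.06-fold, from 3.30 ± 0.141 to 6.81 ± 1.73 TPM, but did not pass once the replicate 3 library of each group was left out (limma adjusted p = 0.0645). SOG1, the transcription factor that directs the plant DNA damage response, was at 12.3 ± 0.619 and 11.2 ± 0.304 TPM and did not pass the test, and neither did E2FA (annotated E2F3) at 6.02 ± 0.796 and 5.75 ± 0.436 TPM. Both were picked after their values were seen. The checkpoint kinase gene ATR, also picked, lay below the expression filter.

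Of 35 tested genes of the DNA replication machinery, 22 were called higher and 1 lower, beside 17.4% and 10.5% of all loci tested, with a median log2 fold change of 0.51. This list and those of DNA damage and mitosis genes were chosen with earlier results of these data known, so their counts are descriptions. Fewer were called higher in each of the 7 fits that left out libraries, 10 to 17 of them. The number called higher was 14 without control replicate 3, 10 without DMMTA replicate 1, 11 without DMMTA replicate 3, and 10 with neither of the replicate 3 libraries. The largest rise was in TIL1, the catalytic subunit of DNA polymerase epsilon. It was at 5.19, 4.92 and 3.34 TPM in the control libraries and 32.0, 24.3 and 24.2 TPM in the DMMTA libraries, 5.98-fold higher (limma adjusted p = 4.13e-05). No overlap was seen, and TIL1 was the only gene of this list with a log2 fold change above that of RNR1.

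POLA3 (AT5G41880), of DNA polymerase alpha, rose 1.70-fold, from 16.0 ± 0.903 to 27.3 ± 2.34 TPM (SD, n = 3). ICU2, the catalytic subunit of the same polymerase, was 1.65-fold higher, but that call held in only 1 of the 7 fits that left out libraries (limma adjusted p from 0.0176 to 0.123, the former without control replicate 1), and not with no expression filter (0.0662). CDT1B, a replication licensing factor, was 1.70-fold lower, from 3.39 ± 0.413 to 1.99 ± 0.530 TPM (SD, n = 3), a call that held in 2 of those 7 fits (limma adjusted p from 0.0416 to 0.119), those without control replicate 2 and without DMMTA replicate 1, and not with no expression filter (0.0551).

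Most tested genes of the DNA damage response were higher in the same libraries as TSO2 and RNR1. The list was chosen with earlier results of these data known, so its count is a description. Of 20 tested, 15 were called higher and 0 lower, beside 17.4% and 10.5% of all loci tested, with a median log2 fold change of 1.77, which lies between RNR1 and TSO2. The largest rises were in the SIAMESE-RELATED cell cycle inhibitors SMR7 (AT3G27630), 75.8-fold, and SMR5 (AT1G07500), 40.5-fold, and in BRCA1, a repair ubiquitin ligase, 13.8-fold. The control means of SMR7 and SMR5, 1.06 ± 0.0819 and 1.12 ± 0.559 TPM (SD, n = 3), lay near the expression filter. The size of their folds is therefore uncertain. For SMR5 the log2 fold change was 5.32 with a pseudocount of 0.1 and 3.94 with a pseudocount of 2. The 5 that did not pass the test were BARD1, KU70, KU80, LIG4 and AT4G32700, all repair genes. The largest change among them was that of BARD1, at 8.30 ± 1.49 and 12.0 ± 2.11 TPM (SD, n = 3; limma adjusted p = 0.0581).

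Of 12 tested genes of mitosis, 7 were called lower and 1 higher, beside 10.5% and 17.4% of all loci tested, with a median log2 fold change of -0.72, and 7 of the 19 listed had no usable value. The number called lower was 3 without control replicate 1, 7 without control replicate 2 and 2 without control replicate 3. It was 9 without DMMTA replicate 1, 2 without DMMTA replicate 2 and 2 without DMMTA replicate 3. With neither of the replicate 3 libraries it was 0. CYCB1;2 (AT5G06150, annotated CYC1BAT), a mitotic cyclin, fell from 11.8 ± 0.330 to 5.62 ± 2.15 TPM (SD, n = 3), a call lost without both replicate 3 libraries (limma adjusted p = 0.0675). CDC20.1, an activator of the anaphase-promoting complex, fell from 18.7 ± 2.71 to 8.98 ± 3.76 TPM, and the call was lost without control replicate 3 (0.0513) or both replicate 3 libraries (0.131). KN (annotated SYP111), the cytokinesis syntaxin, was at 20.2 ± 4.47 and 9.59 ± 4.68 TPM, and its call held in 2 of the 7 fits that left out libraries, those without control replicate 2 and without DMMTA replicate 1. MYB3R1 (annotated PC-MYB1), a regulator of mitotic genes, was 1.45-fold higher, with a call that held in 3 of those 7 fits, those without 1 control library.

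Summed over the 12 mitotic genes with values, the level was 98.9 to 117 TPM in the control libraries and 52.6 to 92.8 TPM in the DMMTA libraries. Summed over 36 replication genes it was 362 to 406 TPM in control and 512 to 614 TPM in DMMTA. Within the DMMTA group the highest mitotic sum, 92.8 TPM, was in replicate 1, also the highest library for RNR1 and TSO2. Replicate 1 was the highest treated library for every mitotic gene with a value but TES. RNR1 and TSO2 rose in the same libraries in which the mitotic sum was lower than in control. The part of the number of dividing cells in either shift was not tested.

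**Figure D4:**
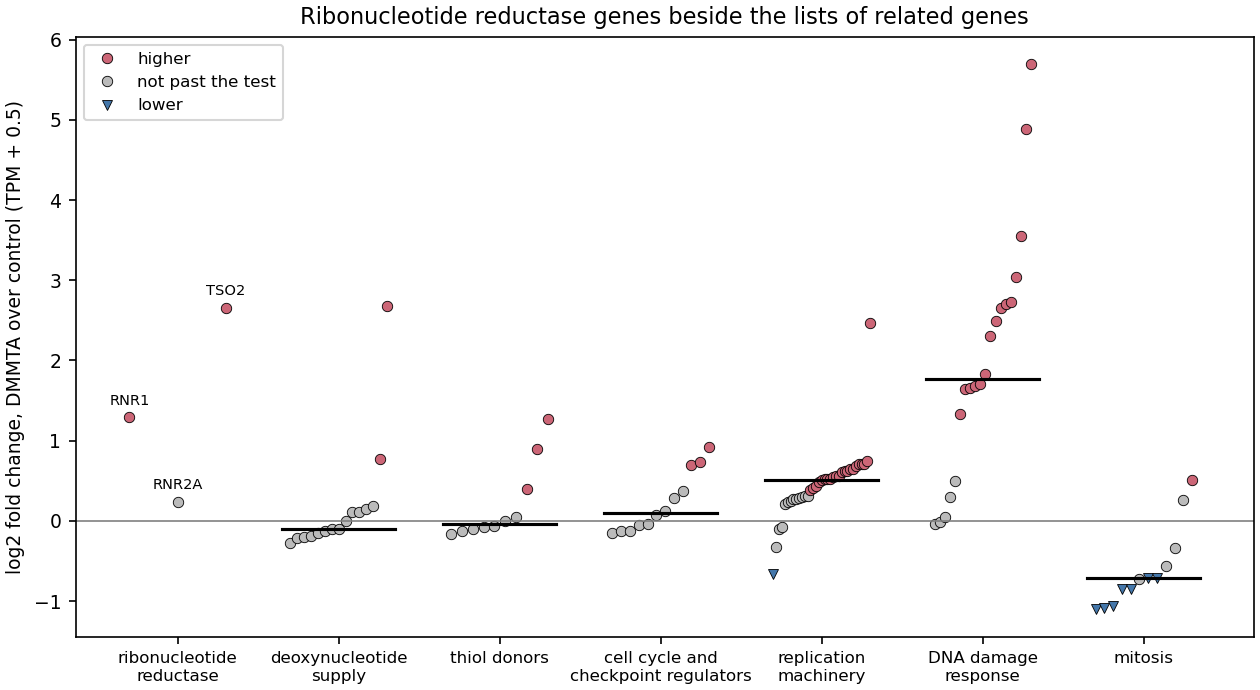
log2 fold change of DMMTA over control, on the log2(TPM + 0.5) scale, for the 3 subunit genes and every tested gene of the 6 lists; red circles were called higher, blue triangles lower and grey circles did not pass the test, and the black bars are list medians. TSO2 (2.66) lies level with the highest gene of the deoxynucleotide list, TK1a (2.68), RNR1 (1.29) lies below the median of the DNA damage list (1.77), and RNR2A (0.24) lies among the genes that did not pass.

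A pair of further loci carry names that refer to the enzyme, and both were picked by name. AT5G50410, named as a beta subunit of ribonucleoside-diphosphate reductase, had 13.3 ± 1.48 TPM in the control group and 12.8 ± 1.16 TPM in the DMMTA group (SD, n = 3; limma adjusted p = 0.757). AT3G61010, named as a ferritin or ribonucleotide reductase-like protein, was at 14.3 ± 1.60 and 12.4 ± 1.51 TPM (adjusted p = 0.316). Neither passed the test, and neither was counted in the small-subunit totals and ratios above.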

How the data were processed

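Each deposited table has 48350 rows, each for a single coding sequence. Its columns, per the file headers, are TPM, RPKM and FPKM. The RPKM values were computed by the authors, as were the deposited FPKM and TPM values, which served as alternatives. DESeq2 is listed in the submitters' processing notes, without a role or version. No aligner, counting tool or genome build is given in the sources used here. In 1883 rows (3.89%) the cells were displaced or emptied, and these rows were left out. RPKM was summed per locus and rescaled to a total of 1000000 per library. The filter kept loci that reached 1 TPM in 3 or more libraries. limma 3.58.1, run in R 4.3.3, was fitted to log2(TPM + 0.5) with an intensity trend, no covariates and Benjamini-Hochberg adjustment over all loci. The fit was tested on simulated data. Balance was tested by exact permutation over libraries. Depth was estimated from low RPKM values and coding lengths of TAIR10.1, and 91.9% to 95.1% of those values then lay within 0.2 read of a whole number. Names are from TAIR10.1, which matched 26445 loci. The files use other mitochondrial locus tags than TAIR10.1, so no coordinates or sequences are printed. The genes and lists were chosen with earlier results of these data known.

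Genes named are the 3 members, for each list the 3 called genes that changed most in the direction of most calls and the 1 that changed most the opposite way, and the 5 loci nearest to TSO2 and 3 each nearest to RNR1 and RNR2A, of which 1 is not reported here. Tissue markers and list members below the filter or not past the test are named outside this rule. Alternatives were other filters, pseudocounts (0.1 and 2), scaling, units, no trend, a replicate block and leaving out libraries. Python 3.11.15 and matplotlib 3.10.9 were used.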

Additional observations from a re-analysis of the deposited data

How the results depend on the processing

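The 3 genes kept their direction and their side of the threshold in all 16 alternatives: log2 fold changes were 1.19 to 1.38 for RNR1 (highest adjusted p 0.00610), 2.59 to 2.71 for TSO2 (0.00113) and 0.18 to 0.30 for RNR2A (lowest adjusted p 0.126). The balance measures kept their direction in all 10 of theirs. The TSO2 share differed by 19.1 to 22.7 percentage points, the latter from FPKM. Counts over all loci, 3272 higher and 1978 lower, moved most with the libraries used. Leaving out each library gave 2074 to 3138 and 1131 to 1577, with 2074 and 1131 without DMMTA replicate 3 and 2181 higher without DMMTA replicate 2. Without both replicate 3 libraries they were 1843 and 847, from fewer samples. The filter still asked for 1 TPM in 3 libraries in the fits that left out libraries, so the loci tested could also differ. With the replicate number as a block, 3539 loci were called higher and 2242 lower. Same-numbered libraries deviated together with correlations of 0.24, 0.33 and 0.08, and each library correlated best with its own number, a hint from the data and not from the design. The block changed no call of the 3 genes (adjusted p = 4.87e-05 for RNR1, 0.126 for RNR2A and 2.38e-06 for TSO2). The level of TSO2 relative to RNR1 in control depends on the column used, RPKM or FPKM, and the cause was not tested.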
